A study of Mus musculus with 9 samples.

Results

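The major histocompatibility complex (MHC) class II genes described here were H2-Aa, H2-Ab1, H2-Eb1, Cd74, H2-DMa, H2-DMb1 and Ciita. They were followed on 9 Affymetrix arrays of mouse distal small intestine. Members were the probe sets, groups of short probes that together report 1 transcript, which the platform annotation assigns to exactly 1 of these 7 symbols. The rule found 14 of the 45101 probe sets on the array, for 6 of the 7 genes: 4 for H2-Aa, 3 each for H2-Ab1 and Ciita, 2 for H2-DMa, and 1 each for H2-Eb1 and Cd74. H2-DMb1 had none of its own, because the 2 probe sets that name it also name H2-DMb2. Those 2 were followed beside the members and not counted among them. In all, 13 of the 14 passed the filter on low values, the exception being a dim probe set of Ciita.

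In every group, Bacteroides thetaiotaomicron, a common gut bacterium, had been present for 10 days after colonization. RNA came from the whole wall, as a pool of the 10th, 11th, 12th and 14th of 16 equal segments, so that epithelium, immune cells and muscle were measured together. The Rag1 group (n = 3 arrays) is named for Rag1, whose product starts the rearrangement of antigen receptor genes, without which mature B and T cells do not form. The BP group (n = 3) carries the Rag1 tissue label too, and the meaning of BP is not explained in the labels. The B6 group (n = 3) was labelled wild type. The series title names IgA, the secreted antibody of the gut, as the subject of the study. Age, sex, strain background of the Rag1 mice and how many animals stand behind each array are not in the labels. The p-values therefore measure the spread between these samples, which may be technical, and 3 arrays per group limit the precision.

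Class II molecules display peptides from endosomes to CD4 T cells. An alpha and a beta chain, H2-Aa with H2-Ab1 in I-A and H2-Ea with H2-Eb1 in I-E, assemble on the invariant chain Cd74, which blocks the groove and carries the complex to endosomes. There H2-DM, made of H2-DMa and a DMb chain, exchanges the remnant of Cd74 for other peptides. Ciita, the class II transactivator, binds no DNA itself but docks on the factors that occupy the X and Y boxes of these promoters, and interferon gamma is its best known inducer outside professional presenting cells. Dendritic cells and B cells express class II constantly, and the villus epithelium of the small intestine also carries it.

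The promoters of the members are shown because the X and Y boxes are the elements through which Ciita acts. RefSeq's promoter table (build GRCm38.p6, 250 bases before to 50 after each transcription start) held windows for 4 of the 7 members. They lie on chromosome 17, where RefSeq's gene table also places H2-Ab1, while it places Ciita on chromosome 16. Sequences run 5′ to 3′ on the gene's strand, and capitals mark matches to the Y box CTGATTGG, the X1 core AGNNACNGA or the X2 core TGACG on either strand. The H2-Aa window is chr17:34287774-34288073 (minus strand), that of H2-Eb1 is chr17:34305617-34305916 (plus strand) and that of H2-DMb1 is chr17:34152941-34153240 (plus strand).
H2-Aa: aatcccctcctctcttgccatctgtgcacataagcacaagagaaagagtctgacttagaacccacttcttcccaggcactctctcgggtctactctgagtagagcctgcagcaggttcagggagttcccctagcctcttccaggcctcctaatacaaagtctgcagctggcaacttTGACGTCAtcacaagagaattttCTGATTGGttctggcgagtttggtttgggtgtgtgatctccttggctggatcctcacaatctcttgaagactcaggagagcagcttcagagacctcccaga
H2-Eb1: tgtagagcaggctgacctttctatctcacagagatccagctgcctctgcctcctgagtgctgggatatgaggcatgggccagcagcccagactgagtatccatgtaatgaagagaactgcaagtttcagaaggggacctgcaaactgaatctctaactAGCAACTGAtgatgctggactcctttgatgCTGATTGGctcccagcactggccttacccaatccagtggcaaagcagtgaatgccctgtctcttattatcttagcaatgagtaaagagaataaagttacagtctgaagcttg
H2-DMb1: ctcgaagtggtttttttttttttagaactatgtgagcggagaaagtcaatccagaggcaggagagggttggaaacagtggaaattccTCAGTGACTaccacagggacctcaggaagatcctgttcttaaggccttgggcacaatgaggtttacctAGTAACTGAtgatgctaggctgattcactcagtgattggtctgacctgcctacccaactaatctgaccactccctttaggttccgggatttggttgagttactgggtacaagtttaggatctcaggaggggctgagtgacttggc

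In H2-Aa the X2 core was found on both strands, beginning 74 and 71 bases before the start and overlapping in 1 palindrome, with the Y box 51 bases before the start. In H2-Eb1 an X1 core lay 92 bases and a Y box 62 bases before the start, with 21 bases between them. H2-DMb1 had an X1 core 95 bases before the start, another on the opposite strand at 163 bases, and no match to the Y box letters. Neither of the 2 H2-DMa windows held any of the 5 motifs searched, and no member window matched the interferon elements TTCNNNGAA (GAS) or GAAANNGAA (IRF element). Of 32851 RefSeq promoter windows of this length, 4.1% held the Y box, 17.7% the X1 core, 20.8% the X2 core, 8.3% the GAS letters and 8.56% the IRF letters. X1 core and Y box were found together in 0.737% of windows, and X2 core and Y box in 0.998%. These matches describe the letters and were not tested for binding.

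Values are deposited array intensities, given per array in the order of replicates 1, 2 and 3. Differences are on the scale of log2(intensity + 16) after quantile normalization, which understates the change of dim probe sets. They are given as the estimate ± its standard error (SE, n = 3 per group) with an adjusted p from limma (a linear model fitted across all 27022 tested probe sets, with Benjamini-Hochberg adjustment over all of them). A probe set is called changed at an adjusted p under 0.05.

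Some arrays stood apart before any comparison. The 3' to 5' signal ratio of beta-actin, a control that increases with RNA degradation, ran from 1.53 to 1.77 in Rag1 and was 3.25, 1.76 and 4.17 in B6. It was 14.2, 2.43 and 20.2 on the BP arrays, highest on replicates 1 and 3. By its correlation with the others of its group, BP replicate 2 stood apart instead (r of 0.838 and 0.844 across probe sets, against at least 0.936 in every other within-group pair). Xist, the X-inactivation RNA of female cells, had intensities of 5.84 to 24.1 in Rag1, 36.0, 624 and 1735 in BP, and 1086 to 1539 in B6. Eif2s3y, on the Y chromosome, had 44.9 to 109 in Rag1, 3.16 to 17.0 in BP and 1.40 to 7.22 in B6. Sex and genotype therefore cannot be told apart between B6 and Rag1. Every BP array also had higher Xist and lower Eif2s3y than every Rag1 array, so sex cannot be separated from group in that comparison either. Rag1's own probe set was too dim to check the label. Igha and Cd3e, from the plasma cell and T cell lists, read 2583 to 6389 and 112 to 154 on the B6 arrays against at most 111 and 44.6 elsewhere.

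In the class II genes other than Ciita, the B6 arrays stood above both other groups. Of all 13 tested probe sets, 11 had a lower estimate in BP than in Rag1, some of them by less than their SE. Over the whole array, 46.2% of tested probe sets had a higher estimate in BP than in Rag1. Between B6 and Rag1, 10 of the 13 tested probe sets rose and 0 fell, representing 5 of the 6 tested genes, all but Ciita. Over the whole array 0.259% of tested probe sets (70 of 27022) were called higher in that comparison. The 10 include the dimmest probe set of H2-Aa, which passed the filter on low values only through its B6 arrays. After normalization every B6 array lay above every Rag1 array in 11 of the 13, against 9% of all tested probe sets. The median difference of the 13 was 1.52, against -0.010 over all tested probe sets.

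**Figure D1:**
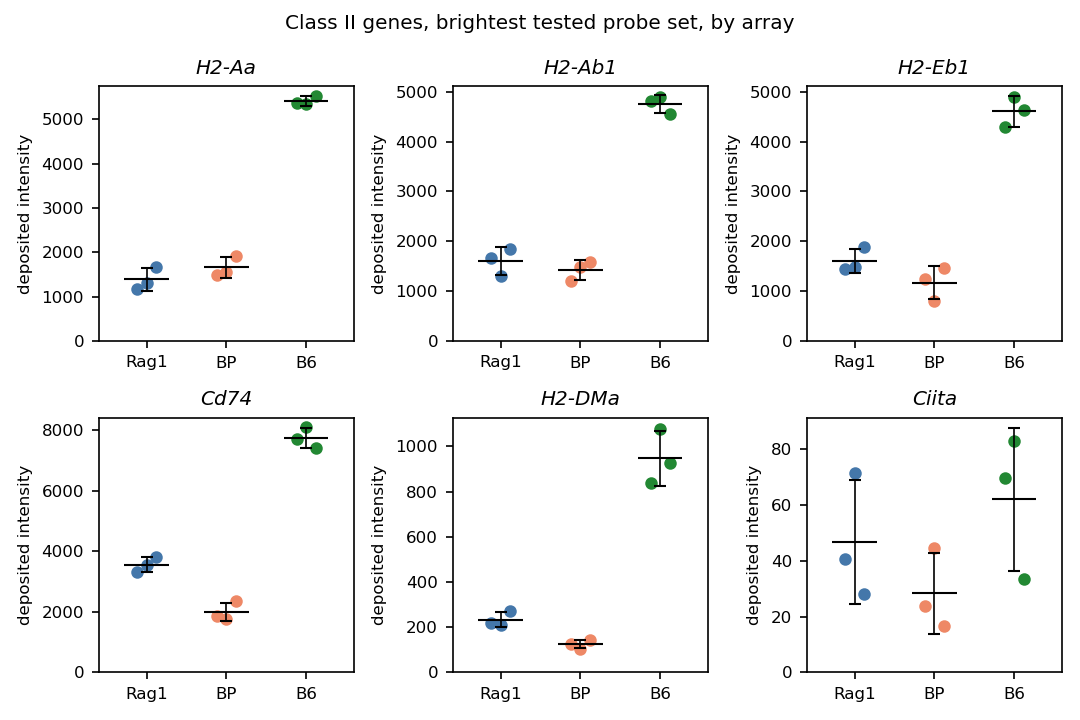
Deposited intensity (vertical axis, linear, starting at 0) of the brightest tested probe set of each class II gene on the 3 Rag1, 3 BP and 3 B6 arrays; points are arrays, the long bar is the mean and the whiskers are 1 SD. For H2-Aa, H2-Ab1, H2-Eb1, Cd74 and H2-DMa the 3 B6 points lie above all other points, while the Ciita points of the 3 groups overlap.

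The alpha chain H2-Aa was measured by 4 probe sets, all higher on the B6 arrays. The brightest, 1438858_x_at, read 1179.7, 1317 and 1674 on the Rag1 arrays, 1486, 1566 and 1925 on the BP arrays, and 5363, 5338 and 5535 on the B6 arrays. The B6 arrays did not overlap the others, and Rag1 and BP overlapped. The change from Rag1 to B6 was 1.93 ± 0.18 (adjusted p = 0.000556), a 3.81-fold difference. Probe set 1435290_x_at gave the same size, 1.93 ± 0.15 (adjusted p = 0.000106), with Rag1 arrays at 1342, 1194 and 1656, BP arrays at 1084, 1391 and 1346, and B6 arrays at 5208, 5689 and 5384. The B6 arrays lay above all others in that probe set too. The third, 1452431_s_at, read 707, 617 and 952 on the Rag1 arrays, 208, 327 and 318 on the BP arrays and 3237, 3917 and 3077 on the B6 arrays, a change of 2.16 ± 0.21 (adjusted p = 0.000597). Here the 3 groups were fully separated, with BP lowest. The dimmest, 1443783_x_at, had 13.8, 21.8 and 17.3 in Rag1, 19.6, 24.8 and 15.5 in BP, and 86.4, 108 and 123 in B6, a change of 1.92 ± 0.24 (adjusted p = 0.00411). It passed the filter on low values only through its B6 arrays. Its mean log2 value was 5.06 in Rag1 and 5.11 in BP, under the cut of 5.30, and 6.98 in B6. Its call is therefore no separate support for higher values in B6.

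The beta chain H2-Ab1, which pairs with H2-Aa, rose on its 3 probe sets. Its brightest, 1450648_s_at, read 1673, 1295 and 1846 on the Rag1 arrays, 1193, 1485 and 1580.2 on the BP arrays, and 4807, 4893 and 4552 on the B6 arrays. The change was 1.52 ± 0.16 (adjusted p = 0.00128), and Rag1 and BP overlapped. Probe set 1451721_a_at read 551, 458 and 686 on the Rag1 arrays, 198, 257 and 242 on the BP arrays and 1811, 2601 and 1775 on the B6 arrays, a rise of 1.85 ± 0.21 (adjusted p = 0.00212). Probe set 1425477_x_at read 487, 445 and 484, then 197, 218 and 156, then 1165, 1409 and 1225, a rise of 1.44 ± 0.18 (adjusted p = 0.00395). In both, every BP array was below every Rag1 array.

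The I-E beta chain H2-Eb1 has 1 probe set, which read 1444, 1483 and 1889 on the Rag1 arrays, 1245, 802 and 1456 on the BP arrays and 4282, 4890.2 and 4637 on the B6 arrays. It rose by 1.49 ± 0.27 from Rag1 to B6 (adjusted p = 0.0433). Its B6 arrays lay apart from the others, but the call was close to the threshold: it was kept in 10 of 21 alternative settings, with adjusted p up to 0.263 when an array was left out. Its alpha partner H2-Ea, on a separate gene list, did not pass (-0.18 ± 0.26, adjusted p = 0.999). H2-Ea was dim, at 26.5 to 49.7 in Rag1, 36.9 to 57.5 in BP and 18.3 to 30.0 in B6. These values lie near the filter cut of 23.5, so they say little about whether H2-Ea changed.

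The invariant chain Cd74 read 3304, 3544 and 3792 on the Rag1 arrays, 1871, 1776 and 2348 on the BP arrays and 7685, 8088 and 7410.1 on the B6 arrays. The 3 groups did not overlap, in the order BP, Rag1, B6. The rise from Rag1 to B6 was 1.22 ± 0.18 (adjusted p = 0.0119), the smallest of the 5 genes that passed. The call was kept in 14 of 21 settings, and was lost in each fit without 1 Rag1 or B6 array (adjusted p 0.0531 to 0.0888).

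The peptide editor subunit H2-DMa had the largest estimate among the brightest probe sets of the 6 genes, within 1 SE of that of H2-Aa. It read 220.0, 209.9 and 269.7 on the Rag1 arrays, 127, 105 and 141 on the BP arrays and 838, 1079 and 926 on the B6 arrays. The 3 groups did not overlap, and the rise from Rag1 to B6 was 2.02 ± 0.26 (adjusted p = 0.00512). Its other probe set, 1459872_x_at, had 52.0 to 61.5 in Rag1, 34.7 to 50.3 in BP and 92.1 to 154 in B6. That difference, 1.02 ± 0.26, did not pass (adjusted p = 0.293), though the B6 arrays lay above the rest. The 2 probe sets shared by H2-DMb1 and H2-DMb2 rose by 2.47 ± 0.28 (adjusted p = 0.00223) and 2.28 ± 0.23 (adjusted p = 0.000901). The brighter of them read 162, 162 and 219 on the Rag1 arrays, 53.2, 49.7 and 77.5 on the BP arrays and 844, 1256 and 949 on the B6 arrays. The dimmer had mean log2 values of 5.31 in Rag1 and 5.28 in BP, at the filter cut of 5.30, and 7.59 in B6. Its place among the tested probe sets rested on its B6 arrays, so its call adds no separate support. A probe set of H2-DMb2 alone had 161 to 254 in Rag1, 228 to 474 in BP and 168 to 235 in B6, and did not pass from Rag1 to B6 (0.095 ± 0.26, adjusted p = 0.999).

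Ciita, the regulator, did not pass on either of its tested probe sets. Probe set 1421210_at read 40.5, 71.6 and 28.2 on the Rag1 arrays, 23.8, 44.6 and 16.5 on the BP arrays and 69.8, 82.9 and 33.4 on the B6 arrays. The intensities of the groups overlapped, and the difference from Rag1 to B6 was 0.43 ± 0.33 (adjusted p = 0.999). Probe set 1447075_at read 56.6, 27.8 and 49.3, then 4.36, 75.1 and 1.55, then 21.4, 67.3 and 40.2, a difference of 0.063 ± 0.49 whose sign depended on the setting. The dim probe set 1421211_a_at, not tested, read 9.93 to 17.2, 13.3 to 31.5 and 19.6 to 59.5. The standard errors of the tested Ciita probe sets, 0.33 and 0.49, were larger than those of the other members.

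**Figure D2:**
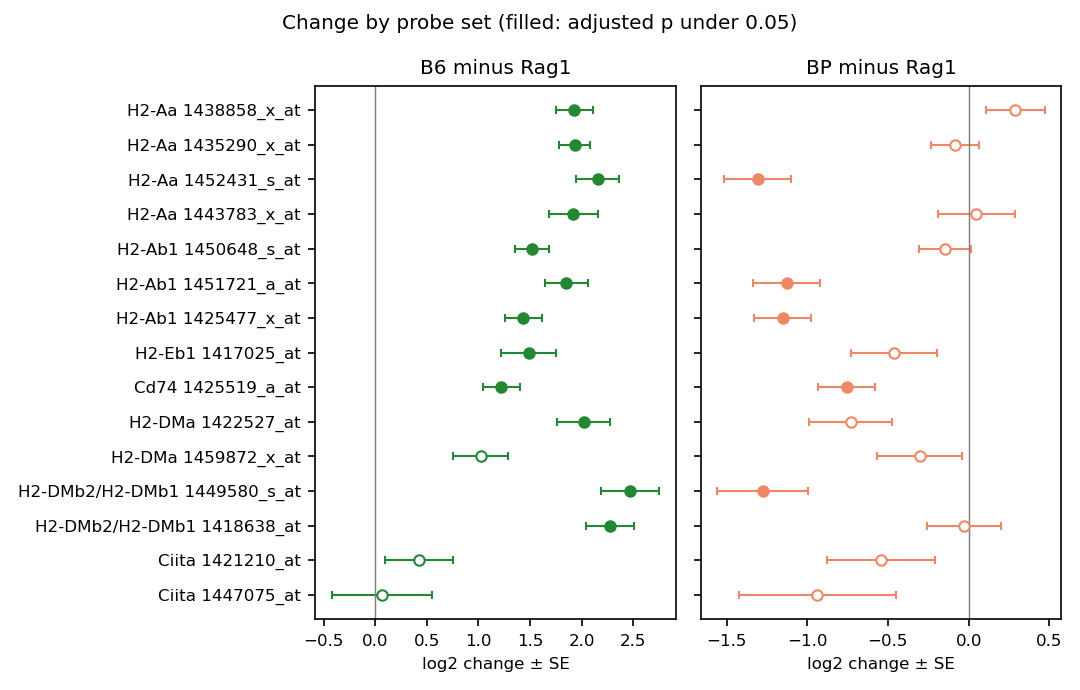
Difference of each tested class II probe set, and of the 2 shared by H2-DMb1 and H2-DMb2, on the log2 scale with its SE (whiskers), for B6 minus Rag1 (left) and BP minus Rag1 (right); filled points have an adjusted p under 0.05. On the left the points run from 0.063 to 2.47 and the sign of the lowest, a Ciita probe set, depends on the setting, while on the right probe sets of the same gene differ, as in H2-Aa from -1.31 to 0.29.

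Between BP and Rag1, which share the Rag1 arrays with the comparison above, 4 of the 13 probe sets fell and 0 rose. Over the array 2.7% of tested probe sets (729 of 27022) were called lower. After normalization every BP array lay below every Rag1 array in 5 of the 13, against 14.2% of all, and 8 overlapped. The 4 were Cd74 (-0.76 ± 0.18, adjusted p = 0.0399), 1 of 4 H2-Aa probe sets (1452431_s_at, -1.31 ± 0.21, adjusted p = 0.0123) and 2 of 3 H2-Ab1 probe sets (1451721_a_at, -1.13 ± 0.21, adjusted p = 0.0200, and 1425477_x_at, -1.15 ± 0.18, adjusted p = 0.0106). The brightest probe sets of these chains did not pass, at 0.29 ± 0.18 for H2-Aa (adjusted p = 0.421) and -0.15 ± 0.16 for H2-Ab1 (adjusted p = 0.683). H2-Eb1 (-0.46 ± 0.27, adjusted p = 0.367) and H2-DMa (-0.73 ± 0.26, adjusted p = 0.138) did not pass either. Of the 2 probe sets shared by H2-DMb1 and H2-DMb2, the brighter fell (-1.28 ± 0.28, adjusted p = 0.0333) and the dimmer did not pass (-0.028 ± 0.23, adjusted p = 0.966). Probe sets with the suffix _x_at or _s_at can bind related sequences, while _a_at marks several transcripts of 1 gene.

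The disagreement between probe sets was present on BP replicate 2 too. Its actin ratio, 2.43, was the lowest of the BP arrays but above every Rag1 array, and it was the array that stood apart from its group. Whether RNA degradation bears on the disagreement was not tested. On BP replicate 2, H2-Aa stood at -1.40 relative to the Rag1 mean on 1452431_s_at and at -0.034, -0.22 and 0.025 on the other 3. H2-Ab1 stood at -1.28 and -1.27 on the lower probe sets and at -0.33 on the brightest. Without BP replicates 1 and 3, 6 probe sets were called lower, H2-Eb1 (-1.22, adjusted p = 0.000500) and H2-DMa (-1.32, adjusted p = 0.00133) added, with BP replicate 2 the lone array and assumed to vary like the rest. In that fit 12.5% of all tested probe sets were called lower, against 2.7% with all arrays. Without BP replicate 2, 5 were lower, a Ciita probe set added at -1.53 (adjusted p = 0.00951), and 1 was higher, the brightest of H2-Aa at 0.46 (adjusted p = 0.0449). Over the array 11.3% were then lower and 8.28% higher, so that the calls rose across the whole array in both fits. Without Rag1 replicate 1, without Rag1 replicate 2 and in a fit of the BP and Rag1 arrays alone, limma called 0 of them, and 5 had an unadjusted p under 0.05 in each case. Calls over the whole array, 1027 with all arrays, were 18, 23 and 183 in these fits, and 14%, 14.7% and 16.2% of probe sets had an unadjusted p under 0.05. Without Rag1 replicate 3, 2 class II probe sets were called, and 212 over the array. The call of Cd74 was kept in 10 of 21 settings. With the actin ratio as a covariate, 6 were called lower, H2-Eb1 (-1.31, adjusted p = 0.00301) and H2-DMa (-1.33, adjusted p = 0.00776) among them, and the brightest H2-Aa probe set turned to -0.13. Over the array 8.79% were called lower with that covariate.

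**Figure D3:**
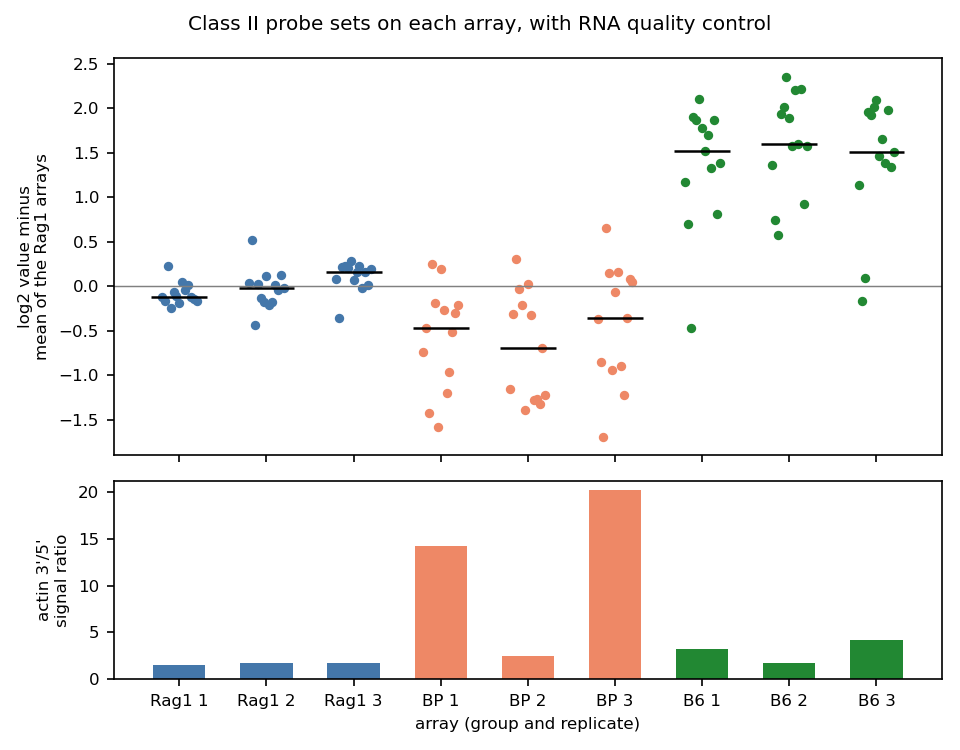
Top, the log2 value of each of the 13 tested class II probe sets on each array minus its mean on the Rag1 arrays, points being probe sets and bars their median; bottom, the 3' to 5' actin ratio of the same arrays. The medians were -0.47, -0.70 and -0.36 on the BP arrays and 1.52, 1.60 and 1.50 on the B6 arrays, while the actin ratio was highest on BP replicates 1 and 3.

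The comparison of B6 with BP tests the difference of the 2 comparisons above directly. Here 10 of the 13 probe sets were higher and 0 lower, where 0.574% of all tested probe sets (155) were called higher. The 10 include the dimmest of H2-Aa, which was tested only because of its B6 arrays. After normalization the groups did not overlap in 12 of the 13, against 11.3% of all. The probe sets of a gene again differed in size, with 3.46 ± 0.21 (adjusted p = 1.06e-05) for H2-Aa on 1452431_s_at and 1.64 ± 0.18 (adjusted p = 0.00139) on 1438858_x_at. H2-DMa was higher by 2.75 ± 0.26 (adjusted p = 0.000371), Cd74 by 1.98 ± 0.18 (adjusted p = 0.000269), H2-Eb1 by 1.95 ± 0.27 (adjusted p = 0.00698, and 0.0547 without B6 replicate 2) and H2-Ab1 by 1.66 ± 0.16 (adjusted p = 0.000493). Ciita did not pass, at 0.97 ± 0.33 (adjusted p = 0.205) and 1.00 ± 0.49 (adjusted p = 0.374, with an estimate of -0.26 without BP replicates 1 and 3). In whole tissue, more class II cells and more class II RNA per cell cannot be told apart.

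Other genes of the presentation pathways were counted from lists, each gene by its brightest tested probe set. The class II promoter factors (Rfx5, Nfya and others, 7 tested) had 0 calls in any comparison. The endosomal processing genes (9 tested), the other class II locus genes (3 tested), the genes of class II turnover (4 tested) and the costimulation genes (4 tested) had 0 calls as well. From Rag1 to B6, 1 gene of these 5 lists, on the costimulation list, had an unadjusted p under 0.05 in limma, as had 5.56% of all tested probe sets. From Rag1 to BP there were 2 endosomal genes, both lower in BP, where 20% of all tested probe sets had such a p. There were also 1 class II locus gene and 1 costimulation gene, both higher in BP. Among these the smallest p belonged to Lgmn, an endosomal protease, at -0.90 ± 0.24 in BP (adjusted p = 0.0591). The lists had medians of 0.13, -0.16, -0.037, 0.20 and 0.26 from Rag1 to B6.

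The interferon gamma input to Ciita (8 tested of 10) had 0 genes called by limma from Rag1 to B6, and 2 at an unadjusted p under 0.05 (5.56% of all tested probe sets). These 2 went in opposite directions. Irf1, an interferon-induced factor that acts on the Ciita promoter, had 1570 to 1666 in Rag1 and 2467 to 2823 in B6, at 0.68 ± 0.16 (adjusted p = 0.234). Ifngr1, a chain of the interferon gamma receptor, had 394 to 561 in Rag1 and 253 to 342 in B6, at -0.52 ± 0.21 (adjusted p = 0.798). Irf8 fell in BP, at -1.12 ± 0.23 (adjusted p = 0.0258). Ifng itself read 1.57 to 22.4 over the 9 arrays and was below the filter.

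Among the class I genes, which load peptides made by the proteasome, 13 were tested. From Rag1 to B6, 2 rose, the peptide transporter Tap1 (1.60 ± 0.26, adjusted p = 0.0209) and the immunoproteasome subunit Psmb9 (1.45 ± 0.20, adjusted p = 0.00801), with a median of 0.33. Over the array 0.259% of tested probe sets were called higher. From Rag1 to BP, 2 fell, H2-D1 (-0.90 ± 0.16, adjusted p = 0.0183) and Psmb8 (-1.20 ± 0.18, adjusted p = 0.00982), and all 13 values were negative. Of all tested probe sets, 2.7% were called lower in that comparison and 46.2% had a positive value. From BP to B6, 5 rose, with a median of 0.98, where 0.574% of all tested probe sets were called higher.

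**Figure D4:**
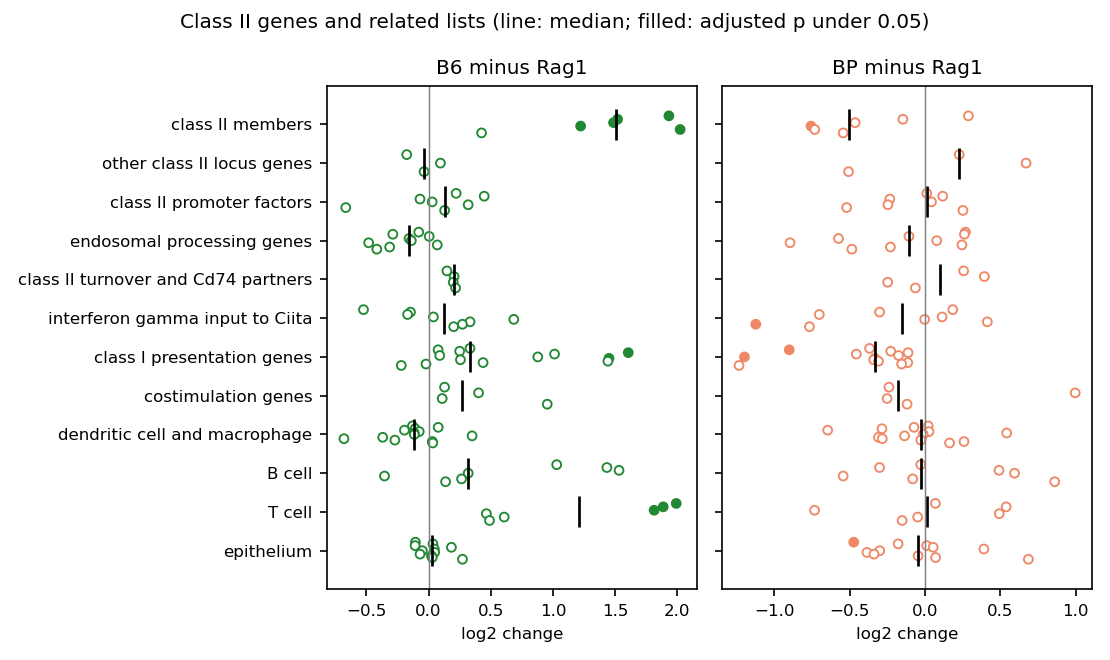
Difference of each tested gene on the log2 scale for B6 minus Rag1 (left) and BP minus Rag1 (right), 1 row per gene list, with the median as a line and filled points at an adjusted p under 0.05. In the left panel 5 of 6 class II genes, 2 class I genes and 3 T cell genes are filled, while the dendritic cell and macrophage row and the B cell row have 0 filled points.

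Cell type markers were set beside the class II values as summed intensities, in which a single bright gene can weigh most. The summed intensity of the dendritic cell and macrophage list was 7349.7 to 8196 in Rag1, 6279 to 6799 in BP and 4851 to 7543 in B6, and limma called 0 of its 13 tested genes, with 0 at an unadjusted p under 0.05 from Rag1 to B6. Most of that sum was Lyz2, at 3540.5 to 6599 over the 9 arrays. The B cell list summed to 245 to 253, 197 to 338 and 345 to 509, with 0 of 7 called and 3 at an unadjusted p under 0.05 from Rag1 to B6, where the share over the array was 5.56%. Its Cd79a, a chain of the B cell receptor, did not pass (1.43 ± 0.36, adjusted p = 0.258). The others of the 3, Ms4a1 and Cd79b, owed their place among the tested genes to their B6 arrays. Their means were 18.9 and 15.1 in Rag1, 23.3 and 29.7 in BP, and 50.2 and 75.2 in B6. The count of 3 is therefore not directly comparable with the share over the array. Of the plasma cell list, 2 of 5 rose from Rag1 to B6 (Igha and Jchain), where 0.259% of all tested probe sets were called higher. Jchain passed the filter only through its B6 arrays, with means of 5.78 in Rag1 and 16.3 in BP against a cut near 23.5. The sums were 1741 to 1883 in Rag1, 1796 to 2131 in BP and 4561 to 11091 in B6. Xbp1, which did not pass, made up most of the sum in Rag1 and BP, at 1515 to 1869.6. Of the T cell list, 3 of 6 rose from Rag1 to B6 (Cd3e, Cd3d and Cd3g), against the same 0.259%, with sums of 293 to 305, 266 to 356 and 660.1 to 714. Cd3d too passed the filter only through its B6 arrays, with means of 8.65 in Rag1 and 21.6 in BP. Cd3g, with means of 34.7 in Rag1, 16.9 in BP and 156 in B6, also owed its place among the tested genes to its B6 arrays. The count of T cell genes that rose is therefore not directly comparable with the share over the array. The epithelial list summed to 55609.7 to 61258, 51378 to 53253 and 57766 to 62208, and Epcam fell in BP (-0.47 ± 0.11, adjusted p = 0.0389). Of the smooth muscle list, 2 of 6 fell in BP, Myh11 (-1.51 ± 0.25, adjusted p = 0.0134) and Des (-0.69 ± 0.17, adjusted p = 0.0485), with sums of 9731 to 12375, 8103 to 13498 and 9605 to 11125. Over the array 2.7% of tested probe sets were called lower in BP than in Rag1. The part of each cell type in the class II values was not tested.

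The genes whose 9-array profile lay nearest to the mean of the class II genes were sought among 13570 genes, by the root mean square (RMS) of the differences between log2 values centred on each gene's mean. The nearest were Psmb9 (0.11), Tap2 (0.25), Ctsw (0.26), Tap1 (0.26), Sp100 (0.29), Rac2 (0.31), Cd3e (0.35) and Nlrc5 (0.35). Of the 8, 4 (Psmb9, Tap2, Tap1 and Nlrc5) are on the class I list. Among the members themselves, Cd74 (0.19), H2-Ab1 (0.21) and H2-Eb1 (0.23) lay near the mean of the others, H2-Aa (0.37) and H2-DMa (0.48) farther, and Ciita farthest (0.71). The likeness describes these 9 arrays and carries no test.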

How the data were processed

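The deposited values were linear intensities per probe set, used as the authors gave them; the software and scaling behind them are not given in the sources used here. Labelled cRNA had 20 µg of total RNA as input, per the labels. Groups and replicate numbers came from sample titles. Intensities were quantile-normalized as log2(value + 16). Tests left out 64 control probe sets and, of the others, the 40% with the lowest 9-array mean, keeping 27022 of 45037. Limma 3.58.1 in R 4.3.3 fitted 1 mean per group with 6 residual degrees of freedom and an intensity trend, two-sided, with Benjamini-Hochberg adjustment. A gene was represented by its brightest tested probe set, and probe sets with several symbols were named for none. From each list, up to 4 called genes, or up to 2 with the smallest p, could be named, and the 8 genes with the nearest profiles. Irf1, Ifngr1, H2-Ea, Ifng, H2-D1, Ms4a1 and Cd79b were added with their values known. Members and lists were chosen with earlier results of these data known. The fit was tested on simulated data. Alternatives were other scalings, pseudocounts and filters, a pairwise fit, a replicate block, no trend, array weights, the actin ratio as a covariate and leaving out arrays.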

Additional observations from a re-analysis of the deposited data

How the results depend on the processing

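Over 21 alternatives the count of class II probe sets called ran from 8 to 11 between B6 and Rag1 and from 9 to 12 between B6 and BP, all higher. Between BP and Rag1 it was 4, 0 when only those groups were fitted, and 0 to 6 when an array was left out. Calls of H2-Aa, H2-Ab1 and the brighter H2-DMa probe set between B6 and each other group held in every alternative that tested them. The Ciita probe set 1447075_at changed sign. Between B6 and Rag1 it was -0.081 on values as deposited, -0.15 with array weights and -0.19 to 0.33 with an array left out. With the actin covariate it was 0.63 between BP and Rag1 and -0.053 between B6 and BP, and without BP replicates 1 and 3 it was 0.32 and -0.26. Between BP and Rag1, H2-Aa on 1438858_x_at was -0.13 with the actin covariate and -0.035 without BP replicates 1 and 3. With an array left out, 1435290_x_at ran from -0.20 to 0.013 and 1443783_x_at from -0.043 to 0.11. The cause was not tested. Shared replicate numbers did not pair the arrays: deviations of same-numbered arrays correlated from -0.19 to 0.23. A replicate block called 9, 3 and 10 class II probe sets for B6 against Rag1, BP against Rag1 and B6 against BP. The standard errors were widest for Ciita.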
